A study of Homo sapiens with 12 samples.

Results

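The genes described here encode enzymes that reduce aldehydes and ketones or hydroxylate fatty acids: the aldo-keto reductases AKR1C1, AKR1C2, AKR1C3, AKR1B1 and AKR1B10, the cytochrome P450 enzymes CYP4F3 and CYP4F11, and the carbonyl reductase CBR1. They were taken by gene symbol from the platform annotation, and 7 of the 8 had a probe set, 1 each, among 17687 distinct symbols on 21448 probe sets. AKR1B1, aldose reductase, had no probe set under its symbol or its gene identifier and was not analysed here. The genes were chosen by their levels in the 4 groups and their changes with SK-216, so those values are given as a description, with no p-value.

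RNA came from 2 human lung adenocarcinoma cell lines, PC-9 and H1975, each carrying a mutated epidermal growth factor receptor (EGFR), on 12 whole-transcript arrays in 4 groups of 3. In each line, the SK-216 group held osimertinib-tolerant cells alive after 48 h with 100 µM SK-216, an inhibitor of PAI-1 known here by its code name, and the tolerant group held cells alive at day 8 of 0.5 µM osimertinib, an EGFR inhibitor. All 4 groups had therefore been exposed to osimertinib, and cells never exposed to it were not analysed here. The labels disagree on 1 point, since the source name of the SK-216 groups calls the starting cells naive while titles, descriptions and the treatment text call them tolerant. Continued osimertinib beside SK-216 is neither stated nor denied, and the SK-216 cells had more time, so drug and added time cannot be told apart. Each condition rests on these 2 lines alone.

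Values are log2 signals of a probe set, as deposited. Signals of different probe sets cannot be set against each other, so levels are compared only between arrays for the same gene. The 349 olfactory receptor probe sets, taken as genes silent in these cells, centred on a median of 3.61 with their 95th percentile at 5.05, and a value under the 95th percentile of its own array (5.00 to 5.26) is called at the floor. Arrays of a group correlated at r = 0.993 to 0.995 across probe sets. All 6 epithelial markers were above the floor in all 4 groups, with group means of 12.15 to 16.67 and 11.95 to 16.72 in SK-216 and tolerant PC-9 cells and of 6.04 to 15.89 and 7.58 to 16.13 in SK-216 and tolerant H1975 cells. All 6 were higher in tolerant PC-9 than in tolerant H1975 cells. The defining markers PTPRC of leukocytes, PECAM1 of endothelium and LUM of fibroblasts had group means between 3.75 and 4.27 in all 4 groups, at the floor. Markers of other cell types were not all absent: CD68 averaged 11.60 in tolerant PC-9 and 12.24 in tolerant H1975 cells, CDH5 7.47 and 4.84, COL1A2 7.90 and 9.02, COL1A1 6.25 and 8.95, and SERPINA1 of hepatocytes 3.86 and 10.75. Of the 4 leukocyte, 3 endothelial, 4 fibroblast and 4 hepatocyte markers measured, 1, 1, 2 and 2 were at the floor in tolerant PC-9 cells and 1, 3, 2 and 1 in tolerant H1975 cells. Their part in the differences between lines was not tested.

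Aldo-keto reductases use NADPH to reduce carbonyl groups. AKR1C1 inactivates progesterone by reducing its 20-keto group, AKR1C2 reduces the 3-keto group of dihydrotestosterone, AKR1C3 makes testosterone from androstenedione and prostaglandin F from prostaglandins, and AKR1B10 reduces retinal and lipid aldehydes. CYP4F3 hydroxylates leukotriene B4 at its omega carbon, CYP4F11 hydroxylates long-chain fatty acids and vitamin K, and CBR1 reduces quinones, prostaglandins and anthracyclines. AKR1C genes, AKR1B10 and CBR1 are known targets of NRF2 (NFE2L2), the transcription factor that binds antioxidant response elements and is held down by KEAP1. In lung cancer high AKR1C and AKR1B10 levels are known as a mark of an active NRF2 pathway.

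AKR1C1, AKR1C2 and AKR1C3 lie side by side on chromosome 10, and AKR1C1 and AKR1C2 are so alike that their start regions are shown first. The 250 bases before the RefSeq start of each (GRCh38.p14) are printed 5′ to 3′, AKR1C1 from chr10:4963165-4963414, plus strand, and AKR1C2 from chr10:5003858-5004107, minus strand, with capitals for the bases outside the longest run that both share.
AKR1C1: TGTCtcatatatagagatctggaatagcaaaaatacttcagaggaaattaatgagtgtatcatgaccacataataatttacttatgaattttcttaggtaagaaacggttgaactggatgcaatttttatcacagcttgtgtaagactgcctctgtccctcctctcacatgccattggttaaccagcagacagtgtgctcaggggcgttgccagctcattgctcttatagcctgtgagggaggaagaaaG
AKR1C2: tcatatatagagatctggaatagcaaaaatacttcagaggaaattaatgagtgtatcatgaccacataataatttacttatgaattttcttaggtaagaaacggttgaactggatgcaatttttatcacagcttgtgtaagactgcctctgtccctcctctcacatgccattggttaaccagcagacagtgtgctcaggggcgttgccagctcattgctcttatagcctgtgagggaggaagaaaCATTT
The shared run was 245 bases long. Over the 300 bases that reach 50 bases past the start, 288 of 292 aligned bases (98.6%) were identical, against 227 of 291 (78.0%) between AKR1C1 and the first of 2 AKR1C3 start regions. The arrays' probe sequences were not used here, so how much signal AKR1C1 and AKR1C2 share is not known. The same holds for AKR1B10 and AKR1B15 and for the CYP4F genes, which are also close paralogs.

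AKR1C1, AKR1C2, AKR1C3, AKR1B10, CYP4F3 and CYP4F11 were all far higher in PC-9 than in H1975 cells, whether tolerant or after SK-216, and CBR1 had a signal between 10.73 and 11.81 on all 12 arrays. Between tolerant cells the fitted difference of the 6 ran from 5.03 to 10.82 on the log2 scale. AKR1C1, which was above the floor on all H1975 arrays, had 10.61, while those of AKR1C2, CYP4F11 and AKR1B10 were fitted against H1975 values at the floor, so the text gives a lower bound for each. With SK-216 the largest difference from tolerant cells was that of AKR1C3 in H1975, at -0.83 ± 0.15 (log2 ± SE of the fit).

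AKR1C1 had 15.89, 15.79 and 15.85 in SK-216 PC-9 cells and 15.85, 15.76 and 15.87 in tolerant PC-9 cells, against 5.58, 5.58 and 5.25 in SK-216 H1975 cells and 5.39, 5.07 and 5.19 in tolerant H1975 cells (log2 signal). All 6 PC-9 arrays stood far above all 6 H1975 arrays, while SK-216 and tolerant arrays overlapped within each line. The H1975 values were above the floor of their own array by little. Between tolerant cells the difference was 10.61 ± 0.13, a ratio of 1563.

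AKR1C2 had 15.16, 15.22 and 15.36 in SK-216 PC-9 cells and 15.15, 15.29 and 15.24 in tolerant PC-9 cells. In H1975 it had 4.44, 4.72 and 4.29 with SK-216 and 5.03, 3.66 and 4.53 in tolerant cells, all at the floor. The lines did not overlap and the 2 conditions of each line did. The difference between tolerant cells was 10.82 ± 0.21. Since an array gives only an upper bound for a gene at the floor, this is stated as at least 1146-fold higher in PC-9, computed against the 95th percentile of olfactory receptor probe sets on each H1975 array, a rule chosen after the data were seen.

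AKR1C3 was the AKR1C gene with a level clearly above the floor in H1975. It had 15.66, 15.68 and 15.71 in SK-216 PC-9 cells and 15.56, 15.55 and 15.64 in tolerant PC-9 cells, against 7.04, 7.01 and 6.89 in SK-216 H1975 cells and 7.54, 7.53 and 8.36 in tolerant H1975 cells. The 4 groups did not overlap anywhere: SK-216 arrays lay above tolerant arrays in PC-9 and below them in H1975. Tolerant PC-9 cells were higher than tolerant H1975 cells by 7.77 ± 0.15, a ratio of 218.8.

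AKR1B10 had 9.30, 9.12 and 9.76 in SK-216 PC-9 cells and 8.94, 9.34 and 9.94 in tolerant PC-9 cells. In H1975 cells it had 3.80, 4.46 and 3.43 with SK-216 and 4.02, 3.79 and 4.87 without, all at the floor. The difference between tolerant cells was 5.18 ± 0.29, which is at least 20.3-fold by the same bound. Within each line the conditions overlapped. Its standard deviations were 0.33 and 0.50 in SK-216 and tolerant PC-9 cells and 0.52 and 0.57 in SK-216 and tolerant H1975 cells.

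**Figure D1:**
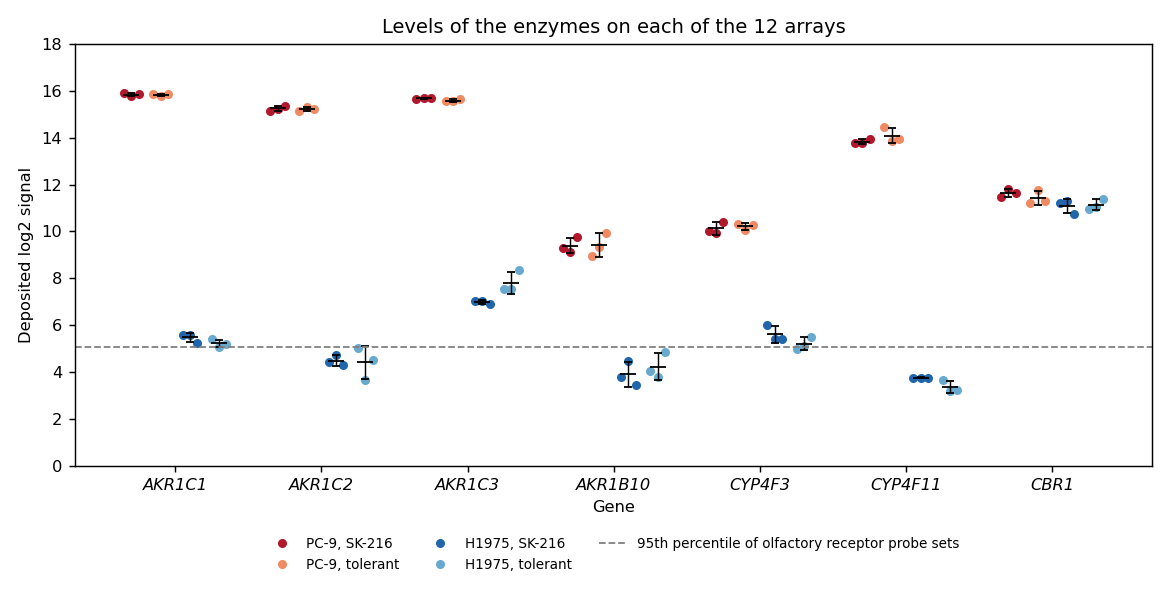
Deposited log2 signal of each gene on each of the 12 arrays (points, left to right: PC-9 with SK-216, PC-9 tolerant, H1975 with SK-216, H1975 tolerant; bars, mean ± SD, n = 3). The dashed line is the 95th percentile of olfactory receptor probe sets, 5.05: for AKR1C2, AKR1B10 and CYP4F11 all H1975 arrays lie under it, while CBR1 lies between 10.73 and 11.81 on all 12 arrays.

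CYP4F11 had 13.78, 13.76 and 13.95 in SK-216 PC-9 cells and 14.45, 13.87 and 13.95 in tolerant PC-9 cells. In H1975 cells it had 3.72, 3.76 and 3.76 with SK-216 and 3.64, 3.20 and 3.23 without, all at the floor, so the gap between these H1975 groups lies within the range of unexpressed genes. Tolerant PC-9 cells were higher by 10.73 ± 0.17, at least 521.3-fold by the bound.

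CYP4F3 had 10.01, 9.94 and 10.42 in SK-216 PC-9 cells and 10.33, 10.05 and 10.28 in tolerant PC-9 cells, against 6.01, 5.40 and 5.40 in SK-216 H1975 cells and 4.96, 5.12 and 5.50 in tolerant H1975 cells. The lines did not overlap, and within each line the conditions did. The difference between tolerant cells was 5.03 ± 0.20, with 1 of 3 tolerant H1975 arrays at the floor, and at least 31.0-fold by the bound.

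CBR1 was the exception among the genes. It had 11.47, 11.81 and 11.62 in SK-216 PC-9 cells and 11.23, 11.78 and 11.31 in tolerant PC-9 cells, against 11.23, 11.29 and 10.73 in SK-216 H1975 cells and 10.97, 11.02 and 11.40 in tolerant H1975 cells. The tolerant groups overlapped, with a difference of 0.31 ± 0.16. After SK-216 all 3 PC-9 arrays lay above all 3 H1975 arrays, with means of 11.63 and 11.08. That comparison was not tested, and the share of all probe sets without overlap in it was not computed. Between the tolerant groups 50.2% of all probe sets did not overlap. An antisense gene, CBR1-AS1, overlaps CBR1 in RefSeq, and whether its RNA adds to the CBR1 signal is not known here.

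In order of level, SK-216 and tolerant PC-9 cells came above both H1975 groups for the first 6 genes, and for 5 of them, all but AKR1C3, the 2 PC-9 groups overlapped. The call used below is limma's test with an adjusted p under 0.05 over all probe sets. By it 6 of the 7 genes were higher in tolerant PC-9 than in tolerant H1975 cells, where 44.0% of all probe sets were called and 21.3% were higher, and nothing is read from this count because the contrast served to choose the genes. The arrays of both tolerant groups did not overlap for the same 6, as for 50.2% of all probe sets in either direction. A lower signal in bulk RNA does not tell fewer expressing cells from less RNA per cell.

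Neighbouring genes were not among those chosen, so limma's adjusted p is given for them. The lists of relatives were chosen with earlier results of these data known, so these p-values may not be independent of that choice. A close paralog may also share signal with a chosen gene. On chromosome 10 the block of high genes ended at AKR1C3: AKR1C8, the next protein-coding gene in RefSeq and named for its place, was at 4.63 in tolerant PC-9 and 4.27 in tolerant H1975 cells (mean log2 signal), a difference of 0.36 ± 0.23 (adjusted p = 0.242). AKR1C4, the liver member that reduces bile acid precursors, was at the floor on all 6 PC-9 and all 3 tolerant H1975 arrays, so no difference is given. On the other side, AKR1E2 went the opposite way. It had 3.35, 3.82 and 3.38 in tolerant PC-9 cells, all at the floor, against 8.96, 8.71 and 9.72 in tolerant H1975 cells, a fitted difference of -5.61 ± 0.25 (adjusted p = 1.58e-15), which is at least 14.9-fold lower in PC-9 by the bound.

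On chromosome 7, AKR1B15, the neighbour and close paralog of AKR1B10, had 11.71, 11.62 and 12.05 in tolerant PC-9 cells, against 6.57, 6.60 and 6.74 in tolerant H1975 cells. Its difference of 5.16 ± 0.15 (adjusted p = 8.17e-19) stands beside the bound of 4.34 for AKR1B10. On chromosome 19, CYP4F2, which hydroxylates vitamin K and arachidonic acid and lies next to CYP4F11, had 9.92, 9.54 and 9.85 in tolerant PC-9 cells, against 5.44, 5.87 and 6.28 in tolerant H1975 cells, a difference of 3.91 ± 0.24 (adjusted p = 8.85e-13). CYP4F12, which follows CYP4F3 in the same cluster, was at 4.26 and 3.92, a difference of 0.35 ± 0.19 (adjusted p = 0.156), and CYP4F8 and CYP4F22 did not pass either, at 0.54 ± 0.23 and -0.03 ± 0.21. In tolerant PC-9 cells, CYP4F3 was thus high between CYP4F8 and CYP4F12, which were at the floor. CYP4F2 and CYP4F11 were high side by side.

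**Figure D2:**
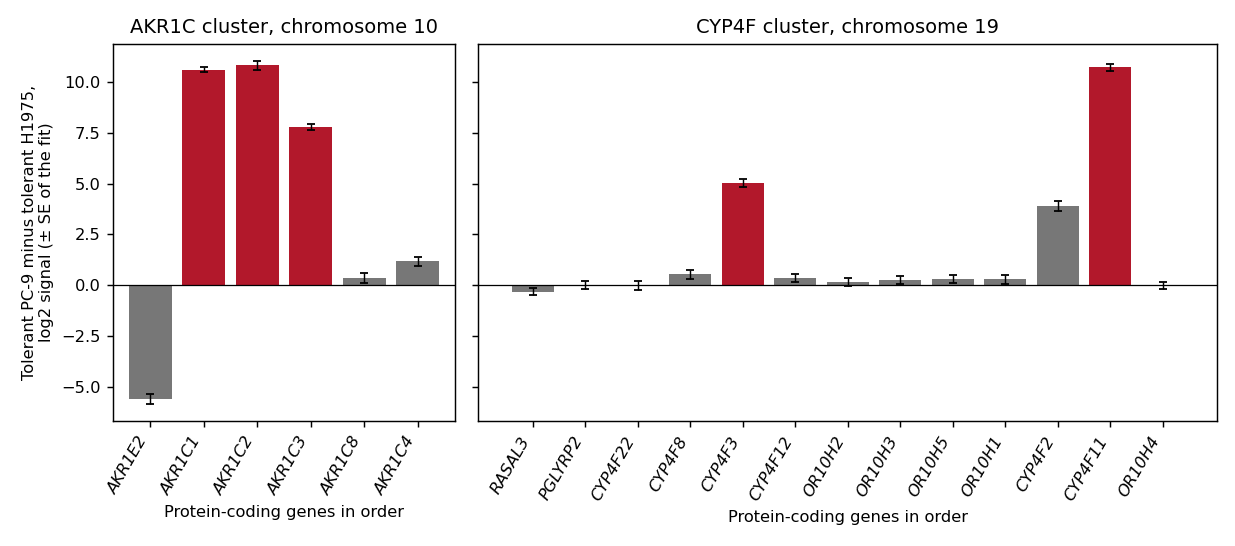
Difference of tolerant PC-9 minus tolerant H1975 cells (log2 signal, bars with SE of the fit, n = 3 arrays per group) for protein-coding genes with a probe set, in RefSeq order along the AKR1C and CYP4F clusters. Red bars are the chosen genes and grey bars their neighbours: AKR1E2 stands at -5.61 beside AKR1C1 at 10.61, and CYP4F12 at 0.35 beside CYP4F3 at 5.03.

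Across the wider families the difference between lines was mixed. Of 9 other aldo-keto reductases listed and measured, 6 were higher and 1 lower in tolerant PC-9 cells, with a median of 0.59. The list did not include AKR1C8, described above. Over all probe sets 21.3% were higher and 22.7% lower, with a median of 0.02. The 6 higher aldo-keto reductases include AKR1C4, at the floor in both tolerant groups, so its call is not read as a difference. They also include AKR7A3, with 2 of 3 tolerant H1975 arrays at the floor. KCNAB1, a potassium channel subunit of this fold, was higher (adjusted p = 1.31e-07) over H1975 values at the floor, by at least 1.77-fold. Of 10 other CYP4 genes, 1 was higher, CYP4F2, and 2 were lower: CYP4V2, a fatty acid hydroxylase, at -2.39 ± 0.14, and CYP4X1, at the floor on all PC-9 arrays and at least 3.27-fold lower (adjusted p = 4.07e-13 and 4.17e-08). Of 21 short-chain dehydrogenases, the family of CBR1, 5 were higher and 9 lower, with a median of -0.24. DHRS2 had 3.52, 3.54 and 4.36 in tolerant PC-9 cells, at the floor, against 12.46, 12.21 and 12.20 in tolerant H1975 cells, a fitted difference of -8.48 ± 0.21 (adjusted p = 3.75e-20), at least 133.1-fold lower by the bound. CBR3, the closest relative of CBR1, was at 7.14 and 6.59 (means of tolerant PC-9 and tolerant H1975 cells), higher by 0.54 ± 0.19 (adjusted p = 0.0212), which was lost in 3 of the 12 fits that left an array out (adjusted p up to 0.108).

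Other targets of NRF2 were higher in PC-9 in most cases. Of 30 measured and not among the chosen genes, 25 were higher and 3 lower in tolerant PC-9 cells, or 83.3% higher beside 21.3% of all probe sets, with a median of 1.64. SLC7A11, the cystine transporter, had 15.98, 15.77 and 15.86 in tolerant PC-9 cells, against 10.24, 10.43 and 10.29 in tolerant H1975 cells, a difference of 5.55 ± 0.09 (adjusted p = 1.49e-23). GPX2, a glutathione peroxidase, had 12.46, 12.41 and 12.49, against 5.04, 4.46 and 5.88 with 2 of 3 arrays at the floor, a difference of 7.33 ± 0.26 (adjusted p = 1.75e-17). GCLM, a subunit of the enzyme that starts glutathione synthesis, was higher by 3.96 ± 0.13, PGD of the pentose phosphate pathway by 3.19 ± 0.12, TXNRD1, thioredoxin reductase, by 1.63 ± 0.07, NQO1, a quinone reductase, by 1.56 ± 0.09, and SRXN1, sulfiredoxin, by 1.30 ± 0.16 (adjusted p = 9.81e-18, 8.3e-17, 5.45e-16, 1.14e-13 and 1.89e-07). HMOX1, heme oxygenase, went the other way, with 5.66, 5.59 and 4.83 in tolerant PC-9 cells, against 7.54, 7.83 and 7.59 in tolerant H1975 cells. UGDH and ABCB6 were the other 2 lower genes, and they are named here because the count is small. The count was 28 to 29 called genes under all alternatives run.

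Of 11 measured regulators and partners of NRF2, 6 were higher and 2 lower in tolerant PC-9 cells, beside 21.3% higher and 22.7% lower over all probe sets. NFE2L2 itself was higher by 0.51 ± 0.10 (adjusted p = 9.17e-05) and KEAP1 lower, at -0.52 ± 0.13 (adjusted p = 0.00148). CUL3, the ubiquitin ligase scaffold that works with KEAP1, was higher by 2.17 ± 0.12, and SQSTM1, which can sequester KEAP1, by 1.65 ± 0.09 (adjusted p = 6.5e-14 and 1.66e-13).

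**Figure D3:**
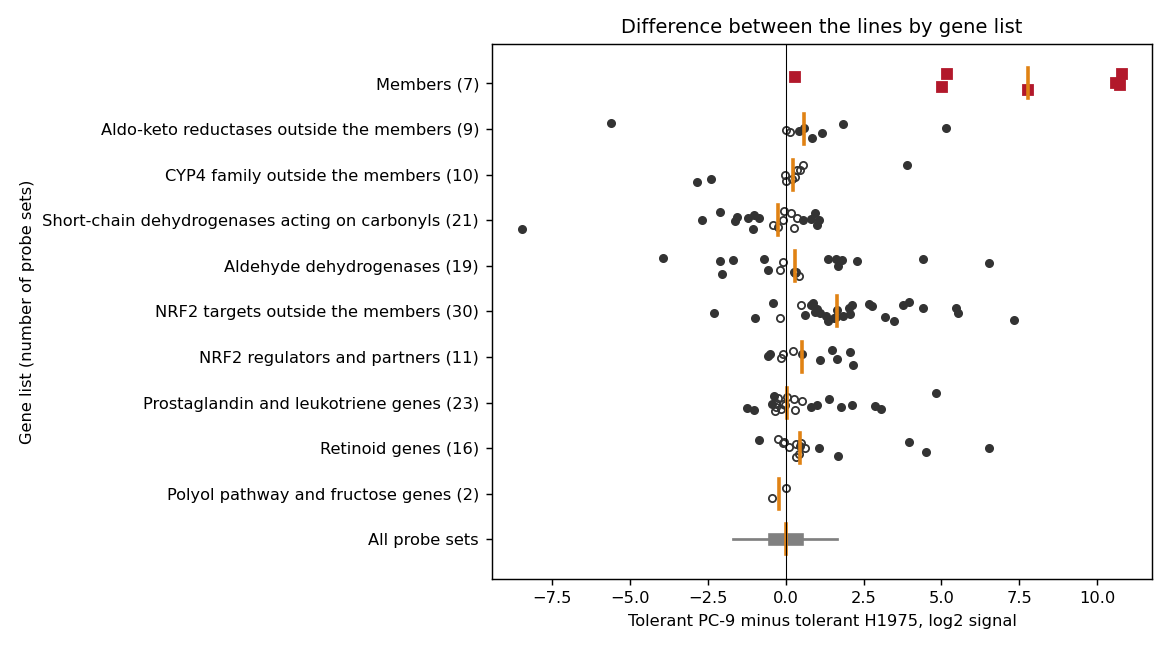
Difference of tolerant PC-9 minus tolerant H1975 cells (log2 signal) for each probe set of a list; filled circles passed limma's test at adjusted p under 0.05, open circles did not, and orange bars are medians. Red squares are the chosen genes, untested, with a median of 7.77. The lowest row gives all 21448 probe sets (thick, quartiles, -0.37 to 0.36; thin, 5th to 95th, -1.70 to 1.66). NRF2 targets have a median of 1.64.

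Prostaglandin, leukotriene and retinoid genes, which make or use substrates of these enzymes, were called about as often as all probe sets, of which 44.0% were. Of 23 prostaglandin and leukotriene genes 8 were higher and 4 lower in tolerant PC-9 cells (52.2% called), with a median of 0.05. PTGS2, cyclooxygenase 2, had 10.72, 10.52 and 10.78, against 5.33, 6.33 and 5.90 in tolerant H1975 cells, higher by 4.82 ± 0.21 (adjusted p = 1.77e-15). PTGR1, which inactivates prostaglandins and leukotriene B4, was higher by 2.13 ± 0.09 and PLA2G4A, which frees arachidonic acid, by 3.06 ± 0.25 (adjusted p = 8.11e-16 and 1.96e-10). For PLA2G4A 1 of 3 tolerant H1975 arrays was at the floor. Of 16 retinoid genes 6 were higher and 1 lower (43.8% called). ALDH1A3, which oxidises retinal to retinoic acid, had 16.47, 16.12 and 16.03, against 10.19, 9.30 and 9.55, higher by 6.53 ± 0.17, and CRABP2, which carries retinoic acid, was higher by 4.51 ± 0.18 (adjusted p = 1.03e-19 and 4.11e-16). Of 19 aldehyde dehydrogenases 7 were higher and 6 lower (68.4% called), among them ALDH3A1 at 4.40 ± 0.21 and ALDH18A1, an enzyme of proline synthesis, at -2.03 ± 0.10 (adjusted p = 6.46e-15 and 2.1e-14). For ALDH3A1 2 of 3 tolerant H1975 arrays were at the floor. The lists overlap: ALDH3A1 and PTGR1 are also counted among the NRF2 targets, and ALDH1A3 among both retinoid genes and aldehyde dehydrogenases. Of KHK and SLC2A5, the 2 measured genes of polyol and fructose metabolism, none passed (0 by limma, 0 at an unadjusted p under 0.05).

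Start regions were searched for the antioxidant response element core TGACNNNGC on both strands. Whether NRF2 has a part in the differences between lines was not tested. RefSeq had 10 start regions of 300 bases for 7 of the 8 genes, and none for AKR1B10. The core was in 2 of the 10, 1 each of CYP4F11 and CBR1, and in 13.3% of all 35116 such windows and 34.5% of the 29 windows of other NRF2 targets. It was in none of those of AKR1B1, AKR1C1, AKR1C2, AKR1C3 and CYP4F3, which says only that these letters are not in these windows. CYP4F11 from chr19:15934868-15935117, minus strand, and CBR1 from chr21:36069774-36070023, plus strand, are printed 5′ to 3′ up to the start with the match in capitals, in each case on the reverse strand and beginning at position -156 and -159 from the start.
CYP4F11: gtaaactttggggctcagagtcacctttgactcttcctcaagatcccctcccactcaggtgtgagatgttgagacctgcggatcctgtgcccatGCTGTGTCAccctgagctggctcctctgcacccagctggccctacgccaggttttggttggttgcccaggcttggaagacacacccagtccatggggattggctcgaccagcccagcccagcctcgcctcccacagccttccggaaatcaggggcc
CBR1: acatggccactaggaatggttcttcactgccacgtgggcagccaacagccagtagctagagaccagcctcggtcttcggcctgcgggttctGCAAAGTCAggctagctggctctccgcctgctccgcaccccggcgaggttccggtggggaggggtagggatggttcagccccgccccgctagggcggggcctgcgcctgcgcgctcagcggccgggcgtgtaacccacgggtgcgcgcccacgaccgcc
CYP4F11 had a difference between tolerant lines of 10.73 and CBR1 one of 0.31. The AP-1 motif TGANTCA was in the window of CYP4F3 and in the second of CYP4F11, against 7.71% of all windows. Neither of these windows held an element core. TATAAA was found in 1 window, of AKR1C3, against 11.5% of all.

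With SK-216 these genes differed little from tolerant cells in either line, AKR1C3 in H1975 apart. In PC-9, 0 of 7 were called, where 0.443% of all probe sets were (0.373% higher and 0.0699% lower), and 0 had an unadjusted p under 0.05 in limma. Changes ran from -0.26 ± 0.17 for CYP4F11 to 0.19 ± 0.16 for CBR1, with AKR1C1 at 0.02 ± 0.13, AKR1C2 at 0.02 ± 0.21 and AKR1B10 at -0.01 ± 0.29. Leaving out 1 array at a time gave -0.37 to -0.08 for CYP4F11, 0.09 to 0.36 for CBR1 and -0.25 to 0.25 for AKR1B10. AKR1C3 was at 0.10 ± 0.15. Its SK-216 and tolerant PC-9 arrays did not overlap, as in 15.0% of probe sets in PC-9 (8.21% with SK-216 above and 6.80% with it below). Its standard deviations were 0.03 and 0.05 in SK-216 and tolerant PC-9 cells and 0.08 and 0.48 in SK-216 and tolerant H1975 cells, and all 4 enter the shared error.

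In H1975, 1 of 7 was called, AKR1C3, which fell, where 3.80% of all probe sets were called and 2.35% fell. Nothing is read from this count, since the changes served to choose the genes. Its change of -0.83 ± 0.15, a ratio of 0.563, was -0.56 ± 0.11 without tolerant array 3, which had the highest value. CYP4F3 was at 0.41 ± 0.20, CYP4F11 at 0.39 ± 0.17, AKR1C1 at 0.25 ± 0.13, AKR1B10 at -0.33 ± 0.29, AKR1C2 at 0.08 ± 0.21 and CBR1 at -0.05 ± 0.16. Leaving out 1 array at a time gave 0.21 to 0.56 for CYP4F3, 0.18 to 0.36 for AKR1C1, -0.61 to -0.0083 for AKR1B10 and -0.15 to 0.13 for CBR1. AKR1C2 was at -0.30 ± 0.16 without tolerant array 2, so even its direction rested on that array, at the floor. CYP4F11 and AKR1C3 were the genes whose H1975 groups did not overlap, as in 18.5% of all probe sets (8.95% with SK-216 above and 9.56% with it below). For CYP4F11 all of these arrays were at the floor. Of 6 epithelial markers 2 rose with SK-216 in H1975, EPCAM at 0.77 and KRT7 at 0.33, and 2 fell, CDH1 at -1.55 and KRT8 at -0.24. That is 66.7% called, beside 3.80% of all probe sets. COL1A1 fell, at -0.96, the 1 of 4 fibroblast markers called. Their part in the AKR1C3 result was not tested.

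The difference of the changes, PC-9 minus H1975, was 0.93 ± 0.22 for AKR1C3, -0.65 ± 0.24 for CYP4F11, -0.51 ± 0.29 for CYP4F3 and between -0.24 and 0.32 for the other 4, beside 1.42% of probe sets called over the whole array. For CYP4F11 all H1975 arrays were at the floor, so its difference rests on values in the range of unexpressed genes. For CYP4F3 1 of 3 tolerant H1975 arrays was at the floor. All these differences are descriptions, like the changes themselves.

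**Figure D4:**
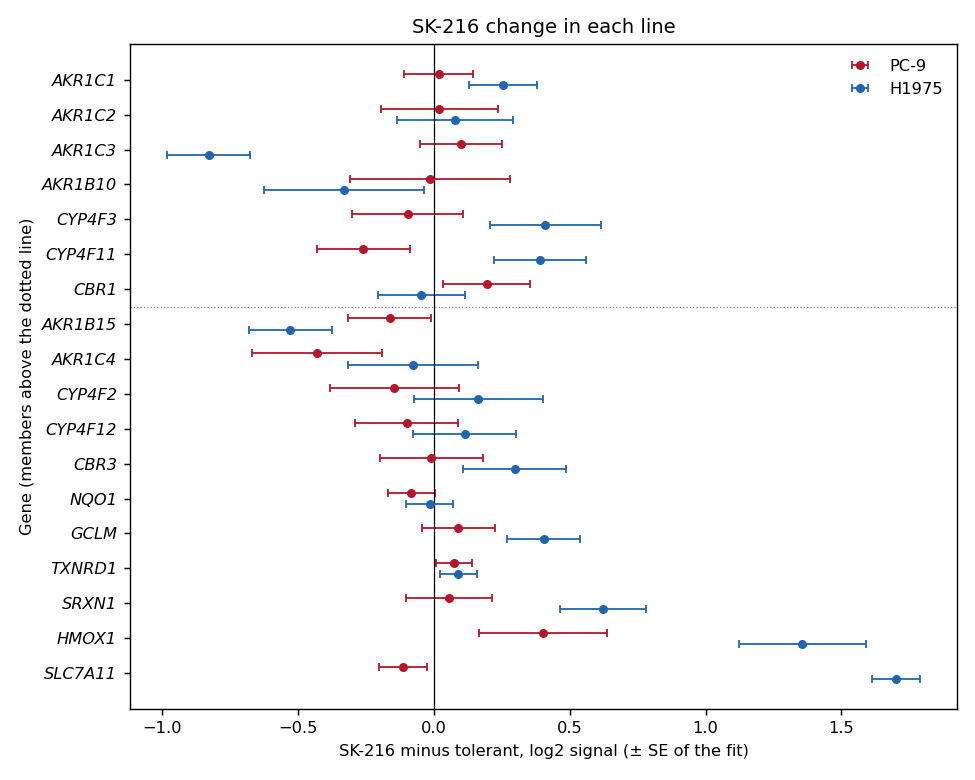
SK-216 minus tolerant cells (log2 signal, points with SE of the fit, n = 3 arrays per group) in PC-9 (red) and H1975 (blue) for the 7 genes, above the dotted line, and for 11 relatives and NRF2 targets. AKR1C3 in H1975 stands at -0.83 and the other 6 genes lie between -0.33 and 0.41 in both lines, while SLC7A11 and HMOX1 in H1975 stand at 1.70 and 1.36.

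Other NRF2 targets did not share 1 direction with SK-216. In H1975, 3 of 30 rose and 1 fell, with a median of 0.05, beside 1.44% and 2.35% of all probe sets. SLC7A11 had 12.03, 11.98 and 12.05 in SK-216 H1975 cells, against 10.24, 10.43 and 10.29 in tolerant H1975 cells, and rose by 1.70 ± 0.09 (adjusted p = 1.31e-11). HMOX1 had 8.97, 8.75 and 9.31, against 7.54, 7.83 and 7.59, and rose by 1.36 ± 0.24 (adjusted p = 0.000777). The rise of SRXN1, 0.62 ± 0.16 (adjusted p = 0.0239), did not pass in 4 of the 12 fits with an array left out (adjusted p up to 0.108). ABCC3, an efflux transporter of conjugates, fell, at -0.74 ± 0.12 (adjusted p = 0.000437). NQO1 at -0.02 ± 0.09, TXNRD1 at 0.09 ± 0.07 and GCLM at 0.40 ± 0.13 did not pass in H1975. In PC-9, 0 of 30 passed by limma, 6 at an unadjusted p under 0.05.

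Among the relatives, 0 of 9 other aldo-keto reductases on the list passed with SK-216 in H1975 and 0 in PC-9 (2 at an unadjusted p under 0.05 in each line, by limma). AKR1B15 was at -0.53 ± 0.15 in H1975 (adjusted p = 0.0537). CYP4X1, with 4.82, 6.20 and 4.97 in SK-216 H1975 cells, against 7.17, 6.60 and 7.06 in tolerant H1975 cells, was the 1 CYP4 gene called in H1975, and it fell, with 2 of 3 SK-216 arrays at the floor, at -1.61 ± 0.32 (adjusted p = 0.0028). In PC-9, HSD17B7, a keto reductase of cholesterol synthesis, had 10.23, 10.12 and 9.95 with SK-216, against 8.59, 9.28 and 9.15 without, and rose by 1.09 ± 0.18 (adjusted p = 0.0023, but 0.0503 without the variance trend in limma). HSD17B12, of fatty acid elongation, passed at 0.45 ± 0.10 (adjusted p = 0.0477) but not in 10 of the 12 fits with an array left out (adjusted p up to 0.255 over all alternatives). Over the 134 measured genes of all 9 lists, 4 rose and 4 fell in H1975, or 5.97% called beside 3.80% of all probe sets. In PC-9, 3 rose, or 2.24% called beside 0.443% of all probe sets.

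Profiles were compared over the 12 arrays by the root mean square difference after centring each probe set on its own mean. The chosen genes were left out of this search, so it does not tell how near they are to each other. Among named genes that were not chosen, those with the most similar profiles were of other families with 1 exception. For AKR1C1 they were VGLL1, KLK5, ESRP1, LCP1 and ENPP5, at 0.298 to 0.767 log2 units, beside a median of 5.26 over all named probe sets searched. For CYP4F11 they were VGLL1, KLK5, ESRP1, LCP1 and UCHL1, at 0.354 to 0.758. For AKR1B10 they were AKR1B15, C2orf15, CLEC7A, DSC2 and S100A14, at 0.395 to 0.457. For CBR1 they were TCFL5, PSMG2, FAF1, CDIPT and SPDEF, at 0.130 to 0.144, where the median was 0.438. The 12 arrays share 2 lines, and the likeness is a description over them.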

How the data were processed

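Levels were measured on 1-colour whole-transcript arrays from 250 ng of RNA each, per the labels' protocols. The log2 values were used as the authors deposited them. Per the submitters' processing notes they come from Transcriptome Analysis Console; version, summarisation, normalization and build are not stated. Values ran from 2.19 to 18.61. Precision is limited by the number of arrays.

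The platform annotation gave 1 symbol to 17709 of 21448 probe sets and none to 3739; symbols were checked against RefSeq (GRCh38.p14). Start regions are RefSeq's, on the same build, aligned with Biopython 1.88. Using limma 3.58.1 (R 4.3.3), the means of the 4 groups were estimated jointly (eBayes with a variance trend, 8 residual degrees of freedom), with 4 two-sided contrasts and Benjamini-Hochberg adjustment over all probe sets; an adjusted p under 0.05 is a call. The fit was tested on simulated data. Changes are log2 ± SE of the fit, 3 arrays per group. The labels do not describe separate cultures, so the p-values reflect array-to-array spread only, possibly technical.

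The genes, the 9 lists of relatives, pathways and markers and the rule for named genes were chosen with earlier results of these data known. The rule took, per list and contrast, up to 4 called genes with the smallest adjusted p. It also took AKR1C4, CYP4F2, CYP4F12, CBR3, NQO1, GCLM, TXNRD1, SRXN1, NFE2L2 and KEAP1. For 4 of the chosen genes it took the 5 nearest profiles among named genes that were not chosen. Alternatives are given below. Figures were drawn with matplotlib 3.10.9.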

Additional observations from a re-analysis of the deposited data

Results flagged for a closer look

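Some SK-216 changes differed between the lines by the test of the difference, PC-9 minus H1975, in which 1.42% of all probe sets were called. SLC7A11 had a difference of -1.81 ± 0.13 (adjusted p = 3.32e-09), with SK-216 changes of -0.11 in PC-9 and 1.70 in H1975. ALDH9A1, which oxidises aminoaldehydes, had 0.92 ± 0.16 (adjusted p = 0.00297), with all SK-216 arrays above the tolerant ones in PC-9 and all below them in H1975. ALDH3B1, which oxidises lipid aldehydes, had 0.74 ± 0.15 (adjusted p = 0.0101), again with arrays moving opposite ways. That call ended without the variance trend (adjusted p = 0.094), 1 of 19 alternatives. RBX1, a subunit of the ligase that KEAP1 recruits, had 0.86 ± 0.22 (adjusted p = 0.0442), and its call ended in 12 of 19 alternatives (adjusted p 0.00896 to 0.194). AKR1C3 had 0.93 ± 0.22, with every SK-216 array above the tolerant ones in PC-9 and below them in H1975. Groups did not overlap in 15.0% of all probe sets in PC-9 and 18.5% in H1975. The AKR1C3 changes were 0.10 ± 0.15 in PC-9 and -0.83 ± 0.15 in H1975, so most of the difference lay in H1975. Over all alternatives they ran from 0.03 to 0.13 in PC-9 and from -0.97 to -0.56 in H1975. The gene was chosen on these changes, so the call of the fit across all probe sets, which ended in 10 of 20 alternatives, is not used, and the difference counts as not tested.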

How the results depend on the processing

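Without the variance trend 448 probe sets were called in H1975 (814 with it), 18 in PC-9 (95) and 99 in the difference of changes (304). The replicate numbers did not pair samples: deviations of same-numbered arrays correlated at r = -0.0912 to 0.0295, and each PC-9 array, but not each H1975 array, correlated best with its own number. With the number as a replicate block 58 were called in PC-9. Leaving out 1 array gave 30 to 104 calls in PC-9, the lowest without SK-216 array 2 (30), then 46 without tolerant array 3, 59 and 60 without SK-216 arrays 3 and 1; it gave 545 to 918 in H1975, 220 to 335 in the difference and 8777 to 9452 between the lines. For SK-216 calls in PC-9 and line-by-SK-216 difference calls, quantile normalization moved the split of higher to lower calls to 51 and 18 in PC-9 (80 and 15 as reported) and to 199 and 107 in the difference (233 and 71). In none of these fits was a gene of the 7 called in PC-9. Small lists of SK-216 calls varied: aldehyde dehydrogenases 0 to 2 in H1975 (2) and 0 to 1 in PC-9 (1), short-chain dehydrogenases 0 to 2 in PC-9 (2), retinoid genes 0 to 1 in H1975 (1), and prostaglandin genes 0 to 2 in H1975 (0). The call of STRA6, a retinol transporter, at 0.66 ± 0.17 in H1975 ended in 7 of 20 alternatives, that of ALDH3A2 at -0.32 ± 0.09 in 17, and that of ALDH9A1 at 0.58 ± 0.12 in PC-9 in 7. Raising dim values to the floor, an alternative added after the data were seen, gave differences between tolerant lines of 10.16 for AKR1C2, 9.03 for CYP4F11 and 4.34 for AKR1B10. A fit of 1 line alone gives no difference of changes and was not run for it. The cause of these shifts was not tested.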
